A study of Mus musculus with 90 samples.

Results

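The mitochondrial respiratory chain and ATP synthase were followed here through 97 genes of a table of 35869, 13 encoded by the mitochondrial genome and 84 by nuclear genes. The mitochondrial members are all the protein genes of that genome: ND1, ND2, ND3, ND4, ND4L, ND5 and ND6 of complex I, CYTB of complex III, COX1, COX2 and COX3 of complex IV, and ATP6 and ATP8 of ATP synthase, counted here as complex V. The nuclear members were chosen by the start of the symbol: 36 Nduf genes of complex I, 4 Sdh genes of complex II, 8 Uqcr genes of complex III, 18 Cox genes of complex IV, 17 Atp5 genes of complex V, and Cycs, which encodes cytochrome c. A position in the mouse genome was found for 94 of the 97 in RefSeq.

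The cells were CD41-positive hematopoietic stem cells sorted from mouse bone marrow and cultured for 2 days, each library being made from 1 cell with a full-length SMART-Seq kit. All mice carried floxed Runx1 alleles and had received 4 injections of poly(I:C) 4 weeks earlier. KO libraries came from MxCre1+/-,RUNX1f/f mice, in which the interferon-inducible Mx1 promoter drives the Cre recombinase that removes the floxed part of Runx1, a transcription factor of blood formation. WT libraries came from MxCre1-/-,RUNX1f/f mice, which lack Cre. A differentiated cell type labelled MK or NMK completes the 4 groups, and the table that the authors had cleared of outliers holds 5 KO MK, 6 WT MK, 13 KO NMK and 9 WT NMK libraries. KO, WT, MK and NMK stand below for libraries so labelled. The Mx1 promoter is known to respond in many tissues, so the deletion is not limited to stem cells, and poly(I:C) itself stirs an interferon response in both genotypes. Summed over the whole gene, Runx1 measured 8.9 to 47.5 TPM (a transcript's share scaled to 1000000 per library) in KO MK and 7.6 to 22.2 TPM in WT MK, and 0 to 41.5 TPM in KO NMK and 0 to 15.7 TPM in WT NMK. That sum also covers parts outside the deleted stretch, so it does not check the genotype labels.

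Cells make most of their ATP by passing electrons from NADH through complex I, or from succinate through complex II, to ubiquinone, then through complex III, cytochrome c and complex IV to oxygen. Complexes I, III and IV pump protons across the inner mitochondrial membrane, and ATP synthase lets them flow back. The subunits of complex II and cytochrome c are all nuclear, whereas the other complexes join subunits from both genomes, so their assembly draws on transcripts made in separate compartments. Resting stem cells are known to rely largely on glycolysis, and blood cells turn more to the respiratory chain as they differentiate.

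Sequences upstream of a few nuclear members are shown because these members carry the differences described below, and because promoters of respiratory chain genes are known for sites of nuclear respiratory factor 1 (NRF1). Each is the run of 250 bases before the gene's start on its own strand, from RefSeq's GRCm38.p6 assembly. Capitals mark an NRF1 core (GCGCANGC) or a cyclic AMP response element (TGACGTCA), searched on both strands together with an ETS core (CCGGAAG) and a RUNX core (TGTGGT).
Cycs (chr6:50566570-50566819, minus strand): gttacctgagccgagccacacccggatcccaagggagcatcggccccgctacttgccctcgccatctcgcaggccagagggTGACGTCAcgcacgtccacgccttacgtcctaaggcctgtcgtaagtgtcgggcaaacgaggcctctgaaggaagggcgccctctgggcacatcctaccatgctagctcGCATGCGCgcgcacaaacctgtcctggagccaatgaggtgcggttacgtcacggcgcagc
Sdha (chr13:74350241-74350490, minus strand): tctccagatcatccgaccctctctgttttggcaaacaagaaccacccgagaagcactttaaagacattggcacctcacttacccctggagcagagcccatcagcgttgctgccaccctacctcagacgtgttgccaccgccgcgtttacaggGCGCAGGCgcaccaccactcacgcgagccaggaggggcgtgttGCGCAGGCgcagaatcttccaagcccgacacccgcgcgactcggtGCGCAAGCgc
Cox7a1 (chr7:30183921-30184170, plus strand): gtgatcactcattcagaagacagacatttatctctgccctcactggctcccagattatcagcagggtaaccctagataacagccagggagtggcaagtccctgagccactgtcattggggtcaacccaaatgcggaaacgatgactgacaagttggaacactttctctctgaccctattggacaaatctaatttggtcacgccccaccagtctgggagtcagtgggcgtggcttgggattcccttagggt

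The window of Cycs held 1 NRF1 core, 60 to 53 bases before the start on the opposite strand, and 1 cyclic AMP response element, which reads the same on both strands. That of Sdha held 3 NRF1 cores, and that of Cox7a1 held none of these letters. The bases G and C made up 64% of the Cycs window, 61.6% of the Sdha window and 51.2% of the Cox7a1 window. Among the 67 nuclear members with such a window, 19 (28.4%) held the NRF1 core, against 9.38% of 27025 mouse genes. The cyclic AMP response element stood in 5 members (7.46%) against 1.77% of the genes, the ETS core in 12 members (17.9%) against 7.83%, and the RUNX core in 7 members (10.4%) against 15.9%. These are counts of letters, not of bound sites, and the 4 motifs were chosen after the expression values had been seen.

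The mitochondrial members have no such promoters of their own, since the circular genome is read as long transcripts that are then cut into shorter ones. ATP8 and ATP6 even share bases, which is shown because reads from the shared stretch cannot be given to either gene alone. In the GENCODE transcripts of the mm10 (GRCm38) mitochondrial genome the last bases of ATP8 are also the first of ATP6, at MT:7927-7969 on the plus strand, with the start codon of ATP6 and the stop codon of ATP8 in capitals.
ATP8 and ATP6: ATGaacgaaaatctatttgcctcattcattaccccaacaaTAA
These 43 bases make up 21.1% of ATP8 but 6.31% of ATP6. ND4L and ND4 share 7 bases, and ND5 shares 14 with ND6, which lies on the other strand. Whether the counting used strand is not given in the sources used here, so ND6 and the antisense of ND5 may not be separate.

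Some libraries stood apart, and results that rest on them are given with and without them. Depth is unknown, since the files hold TPM and no counts. In a pair of KO NMK libraries kept by the authors the nuclear members took little of all TPM, 0.241% in B1-1b and 0.197% in B1-2a. Of the TPM outside the mitochondrial members they took 2.88% in B1-1b and 0.198% in B1-2a. In KO NMK B1-1b the mitochondrial members took 91.6% of all TPM, and in KO NMK B1-2a they took 0.657%, with 3011 genes above 0. These 2 low libraries leave 31. From here on, TPM values, shares and differences of members in KO NMK leave them out unless stated otherwise. A pair of KO MK libraries, 2 and B1-4, went against their label. Their mean log2(TPM + 1) over a list of megakaryocyte and platelet genes was 2.50 and 2.15, against 7.25 to 8.20 in the other 3 KO MK libraries, 4.63 to 5.60 in WT MK, and at most 2.79 in NMK libraries. The 5 WT MK libraries with no prefix in their title resembled each other more than any other cells did, with Pearson's r of 0.972 to 0.981 between their log2(TPM + 1) profiles, against 0.840 to 0.948 among KO MK, 0.722 to 0.835 among KO NMK without the low libraries and 0.689 to 0.850 among WT NMK. Whether they share amplified material was not tested, and their small spread should be read with that in mind. The title prefix B1 marks 2 KO MK, 1 WT MK and 5 KO NMK libraries and no WT NMK library.

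Nothing in the labels says which mouse or dish a cell came from, and the cells of a group are treated as 1 sample. No test across groups was therefore possible, and no p-value is given. Differences are of mean log2(TPM + 1), followed by the pooled standard deviation (SD) between cells, and a gene is called past the fold at a difference of 1 or more in size. A TPM value is a gene's share of a library's transcripts after division by gene length, so a lower share and more of other transcripts cannot be told apart.

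The mitochondrial members together made up 5.38 to 11.2% of the TPM in the 31 libraries. Their share was 7.31 ± 1.92% in KO MK (SD, n = 5 cells), 7.05 ± 1.52% in WT MK (n = 6), 6.64 ± 0.86% in KO NMK (n = 11) and 8.43 ± 1.19% in WT NMK (n = 9). No mitochondrial member was at 0 in any of these 31 cells. In MK cells the genotypes overlapped: KO MK measured 5.69, 6.04, 10.02, 6.15 and 8.67%, and WT MK ran from 6.05 to 9.998% with a median of 6.40%. The 2 high KO MK values, 10.02 and 8.67%, belong to the cells with few platelet transcripts. In NMK cells the share ran from 5.38 to 8.10% with a median of 6.46% in KO, and from 7.08 to 11.2% with a median of 8.36% in WT. KO NMK cells lay mostly below WT NMK cells, with an overlap between 7.08 and 8.10%. The mean share differed between KO and WT by 0.26 percentage points in MK cells, by 0.79 points among those with no title prefix and by -2.59 points among those with prefix B1 (2 KO MK cells against 1 WT MK cell), and by -1.09 points without KO MK 2 and B1-4. In NMK cells it differed by 4.28 points over all 33 libraries, by -1.80 points without the low libraries and by -2.01 points among libraries with no prefix.

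**Figure D1:**
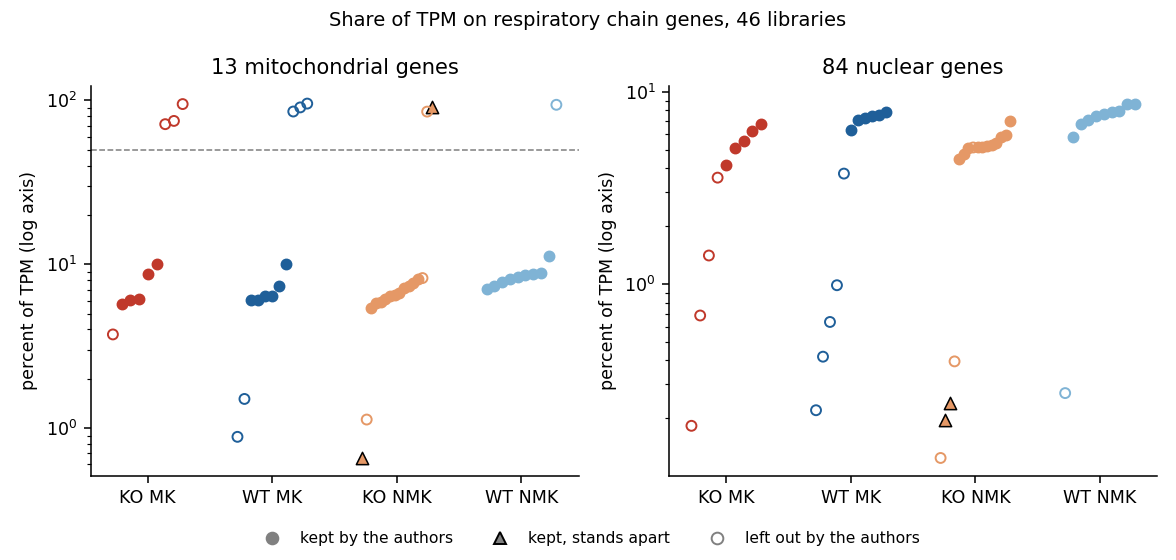
Percent of all TPM on the mitochondrial members and on the nuclear members in each of the 46 libraries, by group, on log axes, with filled points for libraries kept by the authors, open points for those left out, triangles for the 2 low KO NMK libraries and a dashed line at 50%. Among the kept libraries other than the triangles the nuclear share averaged 5.57% in KO MK and 7.28% in WT MK, and 5.40% in KO NMK and 7.55% in WT NMK.

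The nuclear members took a smaller share of TPM in KO cells than in WT cells of the same type. They made up 5.57 ± 1.02% of TPM in KO MK and 7.28 ± 0.52% in WT MK, and 5.40 ± 0.68% in KO NMK without the low libraries and 7.55 ± 0.89% in WT NMK. The 5 KO MK cells had 6.81, 5.11, 6.26, 5.52 and 4.17%, while WT MK cells ran from 6.36 to 7.85% with a median of 7.39%. KO NMK cells ran from 4.48 to 7.01% with a median of 5.23%, and WT NMK cells from 5.83 to 8.67% with a median of 7.64%. One KO MK cell lay within the WT MK range, so the groups overlapped in both cell types. Many of these nuclear genes have near-identical processed copies elsewhere in the genome, Cycs among them, and how the authors' counting treated such reads is not given in the sources used here.

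Single subunits varied widely in level. Of the 84 nuclear members, 80 averaged at least 1 TPM in a group of every comparison. The 4 that did not were Cox7b2, Cox6a2, Cox8b and Cox8c, tissue-restricted isoforms of complex IV subunits known from muscle or testis. Over the 31 cells 73 nuclear members averaged 100 TPM or more and 25 averaged 1000 TPM or more. Ndufa4 was the highest at 4148.5 TPM on average, followed by Uqcrb at 2612 TPM. Its symbol places Ndufa4 in complex I, although the protein is now assigned to complex IV. Ndufs1, the large iron-sulfur subunit of complex I, was low at 20.9 TPM. Between cells the coefficient of variation had a median of 29.7% over the 13 mitochondrial members and 40.6% over the 73 nuclear members at 100 TPM or more, against 53.7% over all 1577 genes at that level.

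In MK cells, most nuclear members were lower in KO than in WT. Of 80 members, 64 were lower and 16 higher, with a median difference of -0.39, while 11799 genes in all had a median of 0.09 and 54.7% of them were higher. The mean over the members differed by -0.33 (SD 0.18). Only 1 member was higher past the fold and 3 were lower past it, against 12.4% of all genes higher and 9.27% lower. The shift was thus small for each gene and spread over many. It came to -0.30 without KO MK 2 and B1-4, when 64 of 79 members were lower, and to -0.27 both among libraries with no prefix and among those with prefix B1. The latter are only 2 KO MK cells, B1-4 among them, against 1 WT MK cell.

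By complex, 30 of 36 members of complex I were lower in KO MK (median -0.34), as were 7 of 8 of complex III (-0.51), 11 of 14 of complex IV (-0.45) and 13 of 17 of complex V (-0.39). Complex II, succinate dehydrogenase, was split, with 2 of its 4 members lower. There were 9 members whose 5 KO MK values all lay below all 6 WT MK values, out of 80, against 1.85% of all genes, and none lay wholly above, against 2.38%. They were Ndufb5 of complex I, Uqcrh of complex III, Cox6a1, Cox6b1 and Cox8a of complex IV, and Atp5g2, Atp5g3, Atp5d and Atp5o of complex V.

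**Figure D2:**
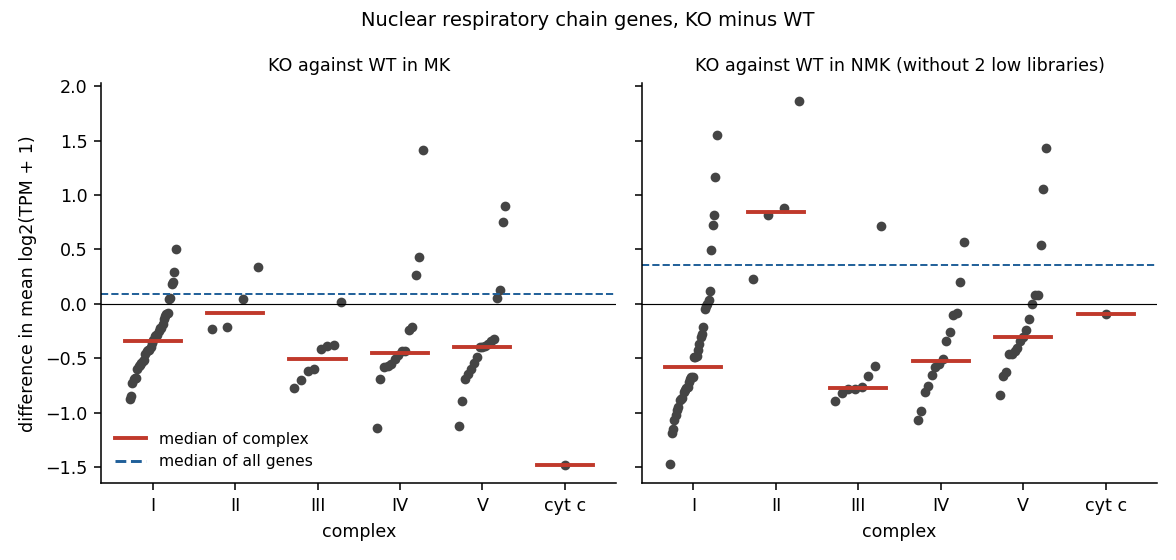
Difference between KO and WT cells in mean log2(TPM + 1) for each nuclear member, by complex, in MK and in NMK cells, the NMK values without the 2 low libraries; the bars mark the medians and the dashed line the median of all genes tested. Complex II stands above 0 in NMK cells with a median of 0.85, whereas the medians of complexes I, III, IV and V lie below 0 in both cell types.

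The examples below were taken from these members without overlap, so their small SDs follow in part from that choice. They do not describe the other members, and the spread in WT MK also rests on the alike libraries described above. Atp5g3, one of the genes for the c subunit that forms the rotor ring of ATP synthase, measured 769.2, 745.2, 746.5, 789.9 and 712.9 TPM in KO MK, and 1029.4 to 1255.2 TPM with a median of 1139.1 TPM in WT MK. Every KO MK cell was below every WT MK cell, a difference of -0.60 (SD 0.10). Cox8a, a small complex IV subunit, measured 1498.5, 1034.7, 1250.0, 1217.2 and 1274.6 TPM in KO MK, and 1760.0 to 2275.4 TPM with a median of 1991.4 TPM in WT MK, a difference of -0.69 (SD 0.16). Atp5o, which joins the head of ATP synthase to its peripheral stalk, averaged 1033.8 TPM in KO MK and 1606.4 TPM in WT MK (-0.65, SD 0.26). Uqcrh, the hinge protein of complex III, averaged 1052.1 TPM in KO MK and 1573.1 TPM in WT MK (-0.61, SD 0.27).

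The 3 members lower past the fold were Cycs, Cox7a1 and Atp5g1. Atp5g1, a second gene for the c subunit, measured 608.0, 417.3, 454.4, 504.0 and 173.8 TPM in KO MK, and 508.1 to 997.6 TPM with a median of 963.4 TPM in WT MK, a difference of -1.13 (SD 0.55). Without KO MK 2 and B1-4 it was -0.79 (SD 0.35), no longer past the fold, and leaving out 1 cell at a time gave -1.28 to -0.83. Without the same 2 cells only Cox7a1, at -2.62 (SD 1.07), was lower past the fold and no member was higher past it. The lowest WT MK value of Atp5g1 is that of library B1-1, the only WT MK library with that prefix, and it lay among the KO MK values. Atp5k, the e subunit of the membrane part, came next at -0.89 (SD 0.43), averaging 1001.0 TPM in KO MK and 1731.5 TPM in WT MK, and stood at -0.57 without the 2 cells.

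Cycs, the gene of cytochrome c, had the largest difference among the 80 members between KO MK and WT MK when all 5 KO MK cells were used. It measured 523.0, 336.0, 295.0, 396.7 and 70.3 TPM in KO MK, and 339.4 to 1083.8 TPM with a median of 881.7 TPM in WT MK. KO MK cells were low and WT MK cells high, apart from WT MK B1-1 at 339.4 TPM, inside the KO MK range. The difference was -1.48 (SD 0.87), and -0.88 (SD 0.53) without KO MK 2 and B1-4, when Cox7a1 at -2.62, Uqcr10 at -0.96, Ndufs1 at 0.91 and Ndufa12 at -0.89 were larger in size. In NMK cells Cycs ran from 135.1 to 457.5 TPM with a median of 316.4 TPM in KO and from 152.0 to 470.2 TPM with a median of 346.1 TPM in WT, a difference of -0.09. Apart from B1-1, the WT MK cells thus stood above every cell of the other 3 groups, which overlapped one another.

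Members higher in KO MK were few and mostly low in level. Cox6b2, a testis isoform, was higher by 1.41 (SD 2.19), but its 91.8 and 104.8 TPM came from KO MK 2 and B1-4, against 0.8 to 2.2 TPM in the remaining 3 KO MK libraries and 0.3 to 15.5 TPM in WT MK. Without those cells the difference was -0.75. Atp5s (0.90) and Atp5sl (0.75), which are named for ATP synthase without being structural subunits of it, were also higher, at 0.26 and 0.42 without those cells. Atp5s had a mean of 11.4 TPM in KO MK cells and 5.25 TPM in WT MK cells, and the mean of Atp5sl was 11.5 TPM in KO MK cells and 6.05 TPM in WT MK cells. Ndufs1 averaged 24.3 TPM in KO MK and 12.6 TPM in WT MK, a difference of 0.51 (SD 0.94), and of 0.91 (SD 0.31) without KO MK 2 and B1-4.

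**Figure D3:**
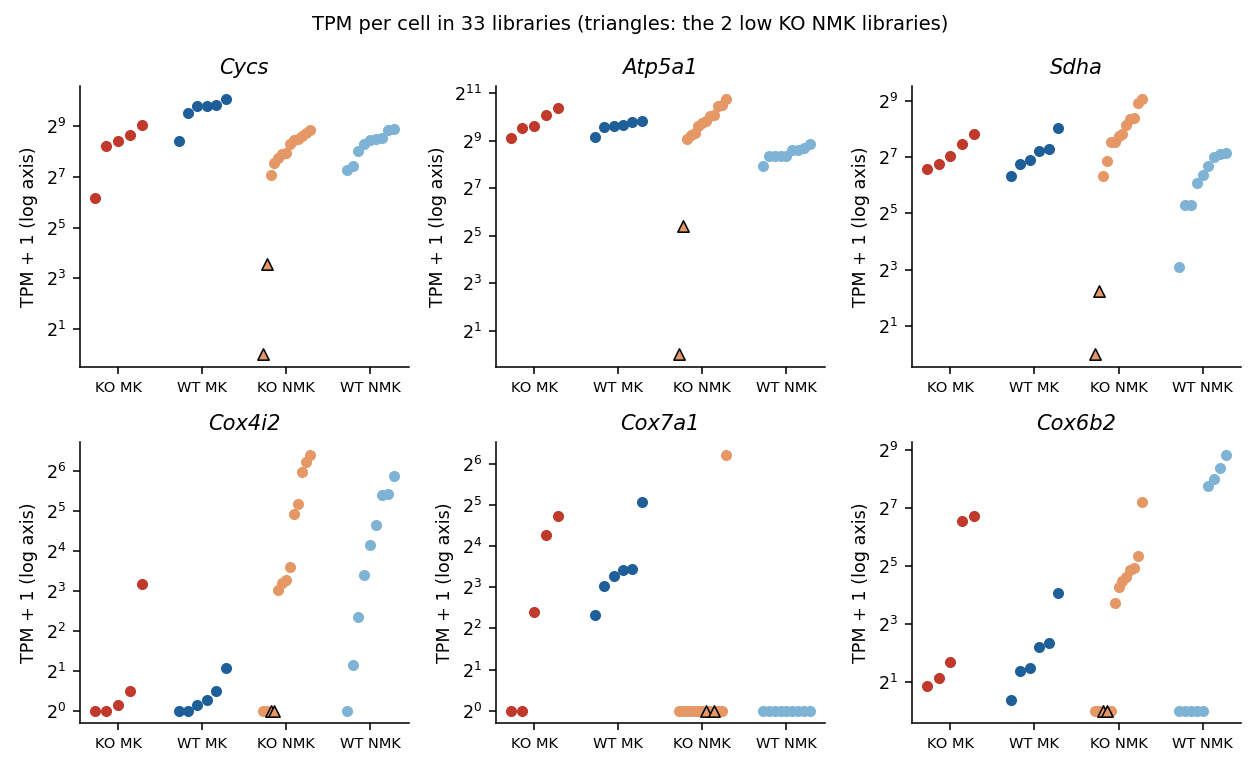
TPM of single members in each cell by group, on a log axis of TPM + 1, one point per cell, with triangles for the 2 low KO NMK libraries. Cycs has its highest values in WT MK, and without the triangles Atp5a1 measures 530.1 to 1744.8 TPM in KO NMK, wholly above the 242.9 to 465.4 TPM of WT NMK.

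In NMK cells the complexes parted company. Over all 33 libraries 75 of 80 nuclear members were lower in KO NMK and 61 were lower and none higher past the fold, against 13.3% of all genes lower and 12.8% higher. That count rests on the 2 low libraries, in which 43 and 82 of the 84 nuclear members were listed at 0. Without them 61 of 80 members were lower with a median of -0.46, while all 11731 genes had a median of 0.36 and 64.3% of them were higher. Past the fold, 5 members were higher and 6 lower, against 24.1% of all genes higher and 7.62% lower. The mean over the members differed by -0.29, and by -0.30 among libraries with no title prefix. Rescaling each library by the median ratio of its genes moved it to -0.63 and gave 3 members higher and 31 lower past the fold.

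Complexes I, III and IV were lower in KO NMK and complex II was higher. In complex I 29 of 36 members were lower (median -0.58), in complex III 7 of 8 (-0.77), in complex IV 12 of 14 (-0.53) and in complex V 12 of 17 (-0.30). All 4 members of complex II were higher, with a median of 0.85, a direction shared by most genes tested, as given above. Of the 4, only Sdha was higher past the fold, against 24.1% of all genes. Succinate dehydrogenase also works in the tricarboxylic acid cycle. Its summed share was 0.18 ± 0.029% of TPM in KO NMK and 0.11 ± 0.037% in WT NMK.

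Sdha, its flavin-bearing catalytic subunit, ran from 78.7 to 534.8 TPM with a median of 221.9 TPM in KO NMK, and from 7.6 to 141.4 TPM with a median of 81.1 TPM in WT NMK. KO NMK cells were mostly high and the groups overlapped, with a difference of 1.86 (SD 1.06). Sdhd, a membrane anchor, averaged 1004.8 TPM in KO NMK and 619.3 TPM in WT NMK (0.88, SD 0.79), and Sdhc, the other anchor, averaged 215.2 TPM in KO NMK and 118.3 TPM in WT NMK (0.82, SD 0.69).

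Within complex I the core and the other subunits differed. The 7 nuclear core subunits, which hold the NADH site, the iron-sulfur clusters and part of the ubiquinone site, had 4 members higher and 3 lower in KO NMK (median 0.04). Of the 29 others, 3 were higher and 26 lower (median -0.72). The core members have annotated transcripts with median lengths of 870.5 to 2625.5 bases. The others have 382 to 2413 bases, most of them shorter than any core member. The part of length in this difference was not tested. Ndufs1, a core subunit that carries iron-sulfur clusters, was higher by 1.16 (SD 1.99) at 33.1 TPM in KO NMK and 9.8 TPM in WT NMK.

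The 6 members lower past the fold in KO NMK were 5 accessory subunits of complex I and Cox7c of complex IV. Ndufb4 ran from 147.2 to 1158.1 TPM with a median of 747.5 TPM in KO NMK, and from 805.2 to 2515.8 TPM with a median of 1850.2 TPM in WT NMK, a difference of -1.47 (SD 0.80). Ndufb2 averaged 310.0 TPM in KO NMK and 678.6 TPM in WT NMK (-1.19, SD 0.50), and Ndufa6 averaged 546.4 TPM in KO NMK and 1205.2 TPM in WT NMK (-1.15, SD 0.73). Ndufa13, Cox7c and Ndufa11 followed at -1.07, -1.07 and -1.02. The complex IV subunit Cox6c was lower by 0.81 on the log2 scale, and its 1163.8 to 2324.9 TPM in KO NMK lay wholly below the 2339.0 to 4367.6 TPM of WT NMK.

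In ATP synthase the alpha and beta subunits of the catalytic head went the other way from most of its members. Atp5a1, the alpha subunit, ran from 530.1 to 1744.8 TPM with a median of 921.3 TPM in KO NMK, and from 242.9 to 465.4 TPM with a median of 330.1 TPM in WT NMK. Without the 2 low libraries every KO NMK cell was above every WT NMK cell, and the difference was 1.43 (SD 0.45). Over all 13 kept KO NMK libraries Atp5a1 ran from 0 to 1744.8 TPM and overlapped WT NMK. Atp5b, the beta subunit that carries the catalytic sites, ran from 483.3 to 2374.0 TPM in KO NMK and from 468.8 to 900.2 TPM in WT NMK, with overlap (1.06, SD 0.57). Without the 2 low libraries Atp5a1 and Cox6c were the 2 nuclear members whose groups did not overlap, 1 of 80 in each direction, against 0.136% of all genes higher and 0.0682% lower.

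**Figure D4:**
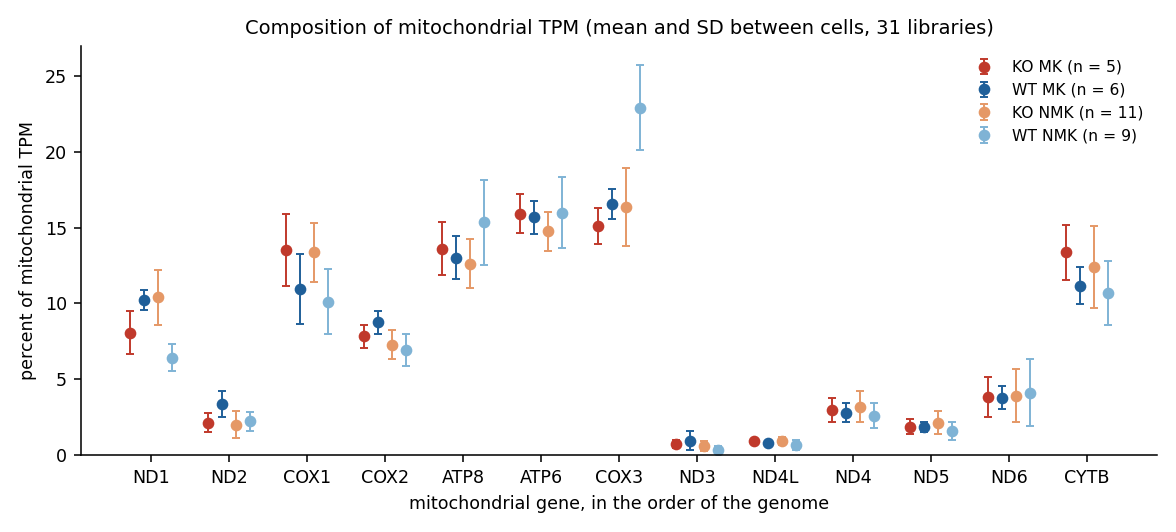
Share of each mitochondrial member in the summed TPM of the 13, by group, as the mean with the SD between cells over the 31 libraries. COX3 stands at 22.9% in WT NMK and between 15.1 and 16.6% in KO MK, WT MK and KO NMK.

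Among mitochondrial members, COX3, a core subunit of complex IV, had its highest mean share of mitochondrial TPM in WT NMK. Its TPM reached 17017.9 in KO MK, inside the WT NMK range, and 15229.7 in WT MK, below that range. It ran from 7401.5 to 14314.2 TPM with a median of 10908.8 TPM in KO NMK, and from 16073.9 to 27825.5 TPM with a median of 18776.1 TPM in WT NMK. Without the 2 low libraries every KO NMK cell was below every WT NMK cell, a difference of -0.84 (SD 0.29), and no other mitochondrial member of the 13 was without overlap there. Over all 13 kept KO NMK libraries COX3 ran from 1886.5 to 130280 TPM and overlapped WT NMK, with a difference of -0.75 (SD 1.02). COX3 took 16.3 ± 2.56% of mitochondrial TPM in KO NMK, 15.1 ± 1.17% in KO MK, 16.6 ± 0.99% in WT MK and 22.9 ± 2.80% in WT NMK. The highest KO NMK share was 22.1%, inside the 19.2 to 28.8% of WT NMK. ND1, a complex I subunit, took 10.4 ± 1.81% in KO NMK and 6.43 ± 0.88% in WT NMK. COX1, the catalytic subunit of complex IV, averaged 8871.6 TPM in KO NMK and 8609.4 TPM in WT NMK, a difference of 0.07 (SD 0.35). ATP8 was lower in KO NMK by 0.62 on the log2 scale and ATP6 by 0.45, 2 values that should not be read as separate, the genes sharing the bases printed above. ND1 and COX3 are cut from the same long precursor, and their differences had opposite signs.

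In MK cells no mitochondrial member differed past the fold between genotypes. The mean over the 13 differed by -0.01, with 7 members higher and 6 lower in KO MK. The largest difference was that of ND2, a complex I subunit, which measured 1782.5, 1334.5, 1838.7, 1254.9 and 1289.0 TPM in KO MK, and 1740.4 to 3437.5 TPM with a median of 2235.8 TPM in WT MK (-0.62, SD 0.31). KO MK cells were mostly low, with 2 of the 5 inside the WT MK range. Without KO MK 2 and B1-4, 11 of 13 were lower and the mean over the 13 was -0.22. ND2 then differed by -0.66 (SD 0.32), ND1 by -0.51 (SD 0.28) and COX3 by -0.41 (SD 0.19), while COX1 differed by 0.15 (SD 0.46).

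MK and NMK cells were compared within each genotype. In WT, 44 of 80 nuclear members were higher in MK and 36 lower, with a median of 0.02, while the 11562 genes tested had a median of 0.70. WT MK libraries had 14089 to 15252 genes above 0 and WT NMK libraries 5475 to 11715, and the part of this gap in the differences was not tested. Past the fold, 7 members were higher and 2 lower, against 37.4% of all genes higher and 5.22% lower. The 7 members whose WT MK cells all lay above all WT NMK cells were Atp5a1, Atp5b, Atp5f1, Atp5g3, Uqcrc1, Uqcrc2 and Cox7a1, out of 80, against 4.58% of all genes. Ndufa4 and the mitochondrial COX3 lay wholly below, where 0.528% of all genes did.

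Some members of ATP synthase were higher in WT MK, while Atp5e, Atp5d, Atp5h and Atp5j averaged lower there than in WT NMK. Atp5a1 ran from 567.1 to 919.2 TPM with a median of 805.4 TPM in WT MK, against 242.9 to 465.4 TPM in WT NMK (1.16, SD 0.26). Atp5f1, the b subunit of the peripheral stalk, ran from 668.5 to 931.4 TPM with a median of 840.9 TPM in WT MK and from 203.9 to 453.0 TPM in WT NMK (1.46, SD 0.30). For Atp5b the mean was 1460 TPM in WT MK cells, against 703.2 TPM in the WT NMK group (1.06, SD 0.25). The core proteins of complex III, Uqcrc1 (0.73, SD 0.29) and Uqcrc2 (0.96, SD 0.38), were also higher. Cycs, with a mean of 804.4 TPM in WT MK cells against 322.0 TPM in WT NMK cells, differed by 1.33 (SD 0.58). Ndufs4, an accessory subunit of complex I, was higher by 2.20 with an SD of 2.79, because it was at 0 in 2 of 9 WT NMK cells.

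In KO the same comparison depended on which libraries entered. Over all 33 libraries 79 of 80 nuclear members were higher in KO MK with 54 higher and 1 lower past the fold, against 34.2% of all genes higher and 3.84% lower. Without the 2 low KO NMK libraries 45 were higher and 35 lower, with 6 higher and 1 lower past the fold, against 26% and 6.97% of all genes. Without KO MK 2 and B1-4 as well, 52 were higher and 28 lower, with a median of 0.13, and Cycs differed by 0.54 (SD 0.52). Among all genes with a known transcript length, the 3686 shortest then had a median difference of 0.38 and the 3686 longest 0.37. The members' median lay below both, so their count of 52 shows no rise beyond that of these genes. With only the 2 low libraries left out, the 26 shortest members had 0.09 and the 26 longest 0.05, against 0.39 and 0.26 for genes. Over all 33 libraries the members lay higher instead, at 1.24 and 1.22 against 0.85 and 0.37. Atp5a1 averaged 898.1 TPM in KO MK and 1008.4 TPM in KO NMK. Among libraries with no prefix the mean over the members differed by 0.22 between KO MK and KO NMK, and by 0.19 between WT MK and WT NMK. Both comparisons of KO with WT use the same libraries as these, so no overlap of their members is given.

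Some complex IV subunits have a common and a tissue-restricted isoform. Of the 7 restricted forms, 3 differed past the fold between MK and NMK cells in WT. Among all genes, 37.4% were higher and 5.22% lower past it, so this small count does not set the restricted forms apart. Cox7a1 was higher in MK, and Cox4i2 and Cox6b2 were lower, Cox6b2 with a difference of -1.69 (SD 3.50). The other 4 are those under 1 TPM named above. Cox4i2, an isoform known for its induction by low oxygen, ran from 0 to 8.0 TPM in KO MK and from 0 to 84.1 TPM with a median of 11.1 TPM in KO NMK, and from 0 to 1.1 TPM in WT MK and from 0 to 58.5 TPM with a median of 16.7 TPM in WT NMK. The difference in WT was -3.28 (SD 1.64). Its common partner Cox4i1 averaged 991.9 TPM in KO MK and 1088.5 TPM in KO NMK, with a mean of 1136.0 TPM in WT MK cells and 1295.4 TPM in WT NMK cells. Cox7a1, the heart and skeletal muscle isoform whose upstream window is printed above, measured 0, 4.3, 25.5, 0 and 18.3 TPM in KO MK, 4.0 to 32.5 TPM in all 6 WT MK cells, 73.1 TPM in 1 KO NMK cell and was listed at 0 in the other 10, and was listed at 0 in all 9 WT NMK cells. Its 2 high KO MK values again belong to the cells with few platelet transcripts. Without them and the low libraries it averaged 1.43 TPM in KO MK and 6.65 TPM in KO NMK, a difference of 0.24 (SD 1.80). Cox7a2, the common form, averaged 918.2 TPM in KO MK and 899.2 TPM in KO NMK, and had a mean of 1218.4 TPM in WT MK cells and 1278.7 TPM in WT NMK cells. Cox6b2 was listed at 0 in 5 of 9 WT NMK cells and reached 452.3 TPM in another, whereas Cox6b1 averaged 2925.9 TPM there.

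**Figure D5:**
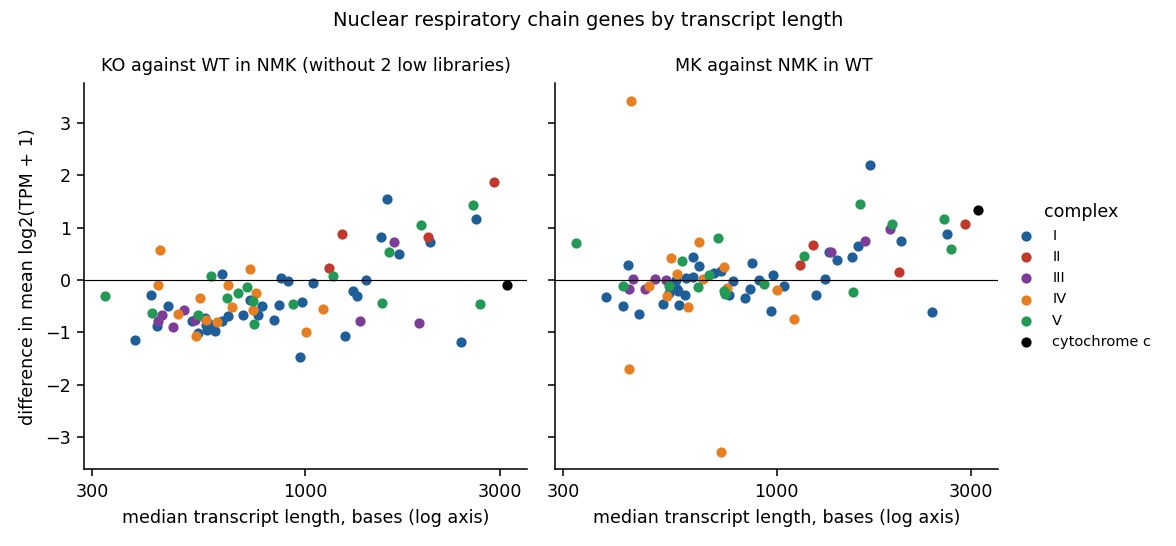
Difference in mean log2(TPM + 1) of each nuclear member against the median length of its annotated transcripts in bases (log axis), coloured by complex, for KO against WT in NMK cells without the 2 low libraries and for MK against NMK in WT. Longer members tend to lie higher in both plots, with Spearman's rho of 0.46 and 0.44 over 79 members.

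Several differences moved with transcript length, which could be computed for 79 of the 80 members. Length is the median over a gene's annotated transcripts, and which of these the cells express is not known here. For KO against WT in NMK without the low libraries, Spearman's rho between difference and length was 0.46 over the nuclear members and 0.18 over all genes with a length. For MK against NMK in WT it was 0.44 over the members and 0.11 over all genes, and for KO against WT in MK 0.29 and 0.03. The 26 shortest members, with a median of 516 bases, had a median difference of -0.74 for KO against WT in NMK, and the 26 longest, with a median of 1594 bases, had 0.15. Sdha, Ndufs1, Atp5a1 and Atp5b are among the members with long transcripts, and Ndufa6, Ndufa11 and Cox7c among those with short ones. The 4 members of complex II have 1142 to 2900 bases. Of the 6 members lower past the fold in KO NMK, Ndufb2 (2413 bases) and Ndufa13 (1251 bases) are also long by this annotated median. Ndufb4, the lowest, has a median of 971 bases. The part of length in these differences was not tested.

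Genes around the chain gave the setting, from lists chosen with these data known. For KO against WT in NMK without the low libraries, 18 of 19 glycolysis genes were higher (median 1.18), 11 of them higher past the fold against 24.1% of all genes, led by Aldoc (2.14), an aldolase, and Hk1 (2.09), a hexokinase. Of 22 genes of the tricarboxylic acid cycle and pyruvate dehydrogenase, 18 were higher (median 0.98) and 11 higher past the fold, led by Pdk3 (2.69), a kinase that inhibits pyruvate dehydrogenase, and Cs (1.66), citrate synthase. Assembly factors of the complexes were lower in 29 of 44 cases (median -0.39), with 9 of 44 higher and 15 of 44 lower past the fold, against 24.1% of all genes higher and 7.62% lower. Tmem126b (-3.45) and Ndufaf3 (-3.20), both complex I assembly factors, differed most. Genes that express mitochondrial DNA were split, 17 of 30 being higher, among them Tfam (2.02), which packages that DNA, while the methyltransferase gene Tfb1m was lower (-2.03). All genes tested had a median of 0.36, and 14 housekeeping genes had 0.33.

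In MK cells these lists differed less between genotypes. Glycolysis genes had a median of 0.16 and cycle genes of 0.13 in KO against WT, assembly factors of -0.18 with 27 of 44 lower, and genes of mitochondrial DNA expression of -0.19. Other genes of the chain and its carriers that the symbol rule misses were lower in 14 of 18 cases (median -0.47). They included Coq7 (-2.29), which acts in ubiquinone synthesis, while Ucp2 (1.75), an uncoupling protein relative, was higher. For MK against NMK in WT, 37 of 44 assembly factors (median 1.03) and 26 of 29 genes of mitochondrial DNA expression (median 1.27) were higher, against a median of 0.70 for all genes and 0.02 for the nuclear members. Cyc1, the cytochrome of complex III outside the rule, was higher there by 1.39.

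In the full table of 46 libraries, 9 had more than 50% of TPM on the mitochondrial members, from 71.5 to 95.5%, and no other library exceeded 11.2%. They were 3 KO MK, 3 WT MK, 2 KO NMK and 1 WT NMK libraries. Of the 9, 8 carry the title prefix B1, out of 18 such libraries, against 1 of the 28 without it. The authors had left out 8 of the 9 and kept KO NMK B1-1b, and they left out 5 further libraries below that limit. Outside the mitochondrial members, the nuclear members still took 2.41 to 6.75% of the remaining TPM in these 9 libraries, although 0 to 72 of the 84 were listed at 0. In the mitochondrial TPM of the 9 libraries, COX3 took 15.3 ± 3.83% and ND1 10.1 ± 2.42%. The mean share lay between the lowest and the highest mean of the KO MK, WT MK and KO NMK groups for 8 of the 13 members. It lay above them for ND3 (1.55%), ND4 (3.36%) and ND4L (1.09%) and below them for ND6 (3.32%) and ATP6 (14.04%).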

How the data were processed

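The authors deposited TPM values (1 decimal, summing to 1000000 per library), in a table of 46 libraries and in a table of 33 from which they had left out outliers. Per the submitters' processing notes, the tools named are featureCounts 1.6.2, STAR 2.6.1e, cutadapt 1.9.1 and FastQC 0.11.7, and the build is mm10. The strand setting, like the handling of multiply mapped reads, is not given in the sources used here. Of 90 labelled libraries 44 are not analysed here, and 1 column that matches no label was not used. TPM is no count, so depth and counting error are unknown.

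Groups were taken from the labels. Means, SDs between cells and differences in mean log2(TPM + 1) were computed with Python 3.11.15, numpy 2.4.6, pandas 2.3.3 and scipy 1.17.1, and figures with matplotlib 3.10.9, for genes whose mean reached 1 TPM in either group compared. The computation was tested on simulated data. No test between groups was run, since each group is 1 sample. Members and lists were chosen with earlier results of these data known. Named were the 13 mitochondrial members, Cycs, Atp5a1, isoform families, the 4 largest and 4 smallest differences per comparison at 10 TPM or more, the highest and lowest member of a complex, and 2 genes per list described; members without overlap between groups and further examples were chosen after their values were seen. The values of 1 nuclear member are not reported here, though it stays in counts, medians and sums. Alternatives were pseudocounts of 0.1 and 10, other filters, rescaling, medians, libraries by title prefix and each library left out. Leaving out KO MK 2 and B1-4, and rescaling without the 2 low KO NMK libraries, were added after seeing the data. Promoter windows and gene positions are RefSeq's (GRCm38.p6).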

Additional observations from a re-analysis of the deposited data

Results flagged for a closer look

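Within each group of 5 to 9 cells, the highest or lowest cell was compared with its nearest neighbour for the mitochondrial share and for the named members, 144 groups in all, and 19 cells stood far from the rest of their group. About 1 in 20 groups would be picked by chance if the cells were independent, which is not known here. Of the 19, 12 were WT MK B1-1, the one WT MK library with that title prefix. The other 5 WT MK libraries had r of 0.972 to 0.981 among themselves and 0.934 to 0.948 with B1-1. The chance rate therefore cannot be applied to these 12, which are not separate results. The mitochondrial members of B1-1 took 9.998% of TPM, the next WT MK cell having 7.40%. It had 2239.1 TPM of ND3, 15152.4 TPM of COX1, 15229.7 TPM of COX3, 15214.8 TPM of ATP6 and 12699.8 TPM of ATP8, each the highest in WT MK. It was also highest for Atp5e at 2136 TPM, Cox6c at 3032.7 TPM and Cox7a1 at 32.5 TPM, and lowest for Atp5g1 at 508.1 TPM, Ndufb4 at 546.6 TPM and Uqcrb at 1958.1 TPM.

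In KO MK, library B1-3 was low in ND4 at 1455.1 TPM, and library 2 was high in Cox4i1 at 1558.6 TPM and in Ndufa4 at 5027.9 TPM. In WT NMK, library 1B had 11.16% mitochondrial TPM, library 2 was low in ATP6 at 9675.6 TPM and in Cox7a2 at 411.6 TPM, and library 1A was high in Ndufa6 at 3017.6 TPM.

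Over all 33 libraries, for 6 of the members reported here every MK cell lay on one side of the NMK mean in KO and on the other side in WT. None of these differences between genotypes was tested. The differences of mean TPM, MK minus NMK, were -10732.8 in KO and 1733.3 in WT for ND1, and -242.9 in KO and 447.5 in WT for ND3. They were 5.29 in KO and -3.45 in WT for Atp5sl, 360.4 in KO and -974.2 in WT for Cox6c, and 241.3 in KO and -200.9 in WT for Cox7b. They were 560.8 in KO and -331.1 in WT for Ndufa6. Of the 6, only Ndufa6 still had all MK cells on opposite sides in KO and WT without the 2 low KO NMK libraries. The KO value was then -1032 for ND1 and 112 for ND3, the sign of ND3 being that of WT. It was 4.16 for Atp5sl, 80.6 for Cox6c, 153 for Cox7b and 477 for Ndufa6.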

How the results depend on the processing

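Values without a test were compared with the main value by sign and by the SD between cells. With all 46 libraries, the mitochondrial share of MK minus NMK in WT was 11.8 percentage points, against -1.38 in the table without outliers, the nuclear mean -2.10 against 0.14, and Cycs -1.63, Atp5a1 -0.19 and Atp5f1 -1.68 changed sign too. For KO minus WT in MK the 46 libraries gave 2.54 points for the mitochondrial share, 0.83 for the mitochondrial mean and 0.78 for the nuclear mean. The log2 ratio of mean TPM put the nuclear mean of MK minus NMK in WT at -0.025. Libraries with prefix B1, 2 KO MK cells against 1 WT MK cell, gave -2.59 points for the mitochondrial share and -0.50 for the mitochondrial mean of KO minus WT in MK. The causes were not tested.

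Leaving out 1 cell at a time from the 33 libraries gave a nuclear mean of -0.39 to -0.25 for KO minus WT in MK, -1.53 to -0.82 in NMK, 0.12 to 0.19 for MK minus NMK in WT and 0.64 to 1.34 in KO. The mitochondrial share ran from -0.42 to 0.85, from -2.29 to 5.29, from -1.97 to -1.04 and from -6.40 to 1.18 points in the same order, and its sign turned in KO minus WT in MK and NMK and in MK minus NMK in KO. Each of these rounds kept at least 1 of the 2 low KO NMK libraries. The nuclear mean of KO minus WT in NMK without both, given above, lay outside its range. Counts past the fold in KO NMK comparisons moved most: 54 higher members in MK minus NMK became 11 with all 46 libraries, 6 without the 2 low ones, 71 with a pseudocount of 0.1 and 26 with 10, and 61 lower members in KO minus WT became 6 without them. Taking the 5 alike WT MK libraries as 1 gave nuclear means of 0.07 for MK minus NMK in WT and -0.25 for KO minus WT in MK. No paired analysis was possible because no test was run and the numbers in the titles tie no cells to an animal. Depth is unknown, so no limit from counting can be given for members listed at 0.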
